A study of Mus musculus with 18 samples.

Results

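Expression of 30 genes of cholesterol synthesis, uptake and efflux was followed in mouse brown adipocytes after β-adrenergic stimulation and after transfection of antisense oligonucleotides against the long non-coding RNA Gm15551. The members were the rows of the count table whose symbol was on the list, and all 30 were found among the 54347 genes listed. They comprise 18 genes of sterol synthesis (Hmgcs1, Mvk, Pmvk, Mvd, Idi1, Fdps, Fdft1, Sqle, Lss, Cyp51, Tm7sf2, Msmo1, Nsdhl, Hsd17b7, Ebp, Sc5d, Dhcr7 and Acat2), 4 regulators (Srebf2, Insig1, Insig2 and Scap), 3 genes of intracellular sterol transport (Stard4, Npc1 and Npc2), 2 efflux pumps (Abca1 and Abcg1), 2 liver X receptors (Nr1h2 and Nr1h3) and Mylip, which limits uptake. All 30 passed the filter on low counts, so that every one was among the 14949 genes tested.

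All cells were of the line wt1-SAM, an immortalised brown preadipocyte line that stably carries the SAM system for CRISPR activation, and no other line was used. They were grown with 10% FBS and induced with a cocktail containing rosiglitazone, T3, dexamethasone, insulin, indomethacin and IBMX, and rosiglitazone at 0.5 µM was kept in the medium afterwards. On day 4 of differentiation 500000 cells per well were reverse transfected with 1.4 µl of a 10 µM locked nucleic acid (LNA) gapmer, an oligonucleotide that directs cleavage of the RNA it pairs with. The gapmer was the non-targeting ctrlA, or LNA1 or LNA2, which pair with different stretches of Gm15551. Cells were harvested on day 7, either unstimulated or after 24 h with 1 µM isoproterenol, an agonist of β-adrenergic receptors. The 6 groups of LNA and stimulation held 3 libraries each, numbered 2, 3 and 4 in every group. No label says that these numbers stand for separate cultures, so the p-values measure the spread between these libraries, which may be technical. The 3 oligonucleotides are printed because they define the groups, and they read, 5′ to 3′:
ctrlA: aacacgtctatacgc
LNA1: gatgactgagattaga
LNA2: aagtagcacggcgttg
Of the annotated transcripts, those of Gm15551 alone held the full complement of LNA1 or of LNA2, and none held that of ctrlA. A complementary run of 12 or more bases to any of the 3 was found in the transcripts of 0 of the 30 cholesterol genes. Of all annotated genes, 0.009%, 0.069% and 0.013% held such a run for ctrlA, LNA1 and LNA2. Shorter runs reached 11 bases for ctrlA in Cyp51 and 10 for LNA1 in Fdps and Npc1. Introns outside the annotated transcripts were not searched.

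Cells make cholesterol from acetyl-CoA by way of mevalonate, farnesyl diphosphate, squalene and lanosterol. When the membrane of the endoplasmic reticulum is poor in sterol, Scap escorts the transcription factor encoded by Srebf2 to the Golgi, where its active part is released and raises transcription of the enzymes, whereas Insig proteins retain Scap in sterol-rich membranes. Oxysterols activate the liver X receptors, which raise the pumps Abca1 and Abcg1 and Mylip, a ubiquitin ligase that removes lipoprotein receptors from the cell surface.

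Libraries held between 9167560 and 19723021 counts in total. The targeted RNA was close to the limit of detection in every library. Gm15551 had 42 counts summed over the 6 ctrlA libraries (2 to 14 per library), 24 over the LNA1 libraries (1 to 12) and 27 over the LNA2 libraries (1 to 13). These were too few to pass the filter, so its change was not tested here. The study itself reported a robust decrease of Gm15551 with both LNAs against the control LNA. Adipocyte markers were abundant, with Fabp4 at 7039.7 to 20891 CPM (counts scaled to library size, with TMM factors) over all libraries and Adipoq at 257 to 772 CPM, whereas Lep had at most 2 counts in a library. Ucp1, the uncoupling protein of brown fat, was at 0.616 to 1.57 CPM without and 9.38 to 16.5 CPM with isoproterenol, so the 9 stimulated libraries lay above all 9 unstimulated ones. The macrophage genes Ptprc and Adgre1 had at most 3 and 2 counts in a library, the endothelial gene Kdr at most 1, and the hepatocyte genes Alb and Ttr at most 2 and 1. Other markers of the same cell types had more counts per library, with 123 to 552 for Cd68 and 1 to 33 for Csf1r (macrophage). The endothelial gene Pecam1 had 20 to 63 and the hepatocyte gene Apoa1 4 to 61. The 6 libraries of replicate 2 stood apart, with 7.86% to 9.79% of counts in mitochondrial genes against 2.56% to 4.97% in replicates 3 and 4, and 2.88% to 14.3% against 0.285% to 1.04% in the ribosomal RNA gene CT010467.1. Of the 30 cholesterol genes, 13 (43.3%) differed by more than 0.5 on the log2 scale between replicate 2 and replicates 3 and 4, which was close to the 44.8% of all genes tested.

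The level of each gene in unstimulated cells was scaled to the length of its merged exons as TPM, a length-scaled share of the library. This length counts every annotated exon of a gene and can exceed that of the transcript expressed. It was 10787 bp for Lss and 4403 bp for Tm7sf2. Comparison between genes is therefore approximate. Insig1, the sterol-regulated anchor of Scap, stood highest with 817 ± 178 TPM (SD, n = 9), above 99.1% of the genes tested. Next came Cyp51, the lanosterol demethylase, with 403 ± 50.6 TPM, and Hmgcs1, the cytosolic HMG-CoA synthase, with 341 ± 66.7 TPM, and the ranges of Cyp51 and Hmgcs1 over the 9 libraries overlapped, while that of Insig1 lay above both. Acat2, which joins acetyl-CoA units ahead of Hmgcs1, had 284 ± 51.7 TPM and Fdps, the farnesyl diphosphate synthase, 193 ± 18.4 TPM. Sqle, Pmvk, Mvd, Lss, Srebf2, Idi1, Npc2 and Msmo1 followed, from 169 TPM for Sqle down to 96.2 TPM for Msmo1. At the lower end stood Npc1 with 23.2 ± 11.1, Mylip with 18.5 ± 4.08 and the sterol reductase gene Tm7sf2 with 9.02 ± 2.70 TPM. On this scale Tm7sf2 was the only member under the median of all genes tested, at percentile 41.0. The 18 synthesis genes took between 0.208% and 0.38% of all counts in a library.

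After isoproterenol, most genes of sterol synthesis and the regulator Insig1 were at lower levels than in unstimulated cells. Averaged over the 3 LNAs (9 libraries against 9), 13 of the 30 genes fell and 0 rose at an adjusted p below 0.05 in edgeR's quasi-likelihood test, against 1.91% of all genes tested that fell and 2.67% that rose. The 13 were 12 of the 18 synthesis genes (Acat2, Mvk, Pmvk, Mvd, Fdps, Fdft1, Cyp51, Tm7sf2, Nsdhl, Hsd17b7, Sc5d and Dhcr7) and Insig1. None of the genes of transport, efflux or uptake passed, nor did the liver X receptors or the other 3 regulators. The median log2 fold change was -0.55 over the 18 synthesis genes and -0.39 over all 30, beside -0.0021 over all genes tested. With the replicate number as a block in the model, which compares libraries of the same number, 21 of the 30 genes fell, including all 18 synthesis genes, and Abcg1 and Scap rose, beside 12.2% of all genes lower and 14.2% higher. These are bulk libraries, in which fewer cells of a kind and less RNA per cell cannot be told apart.

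**Figure D1:**
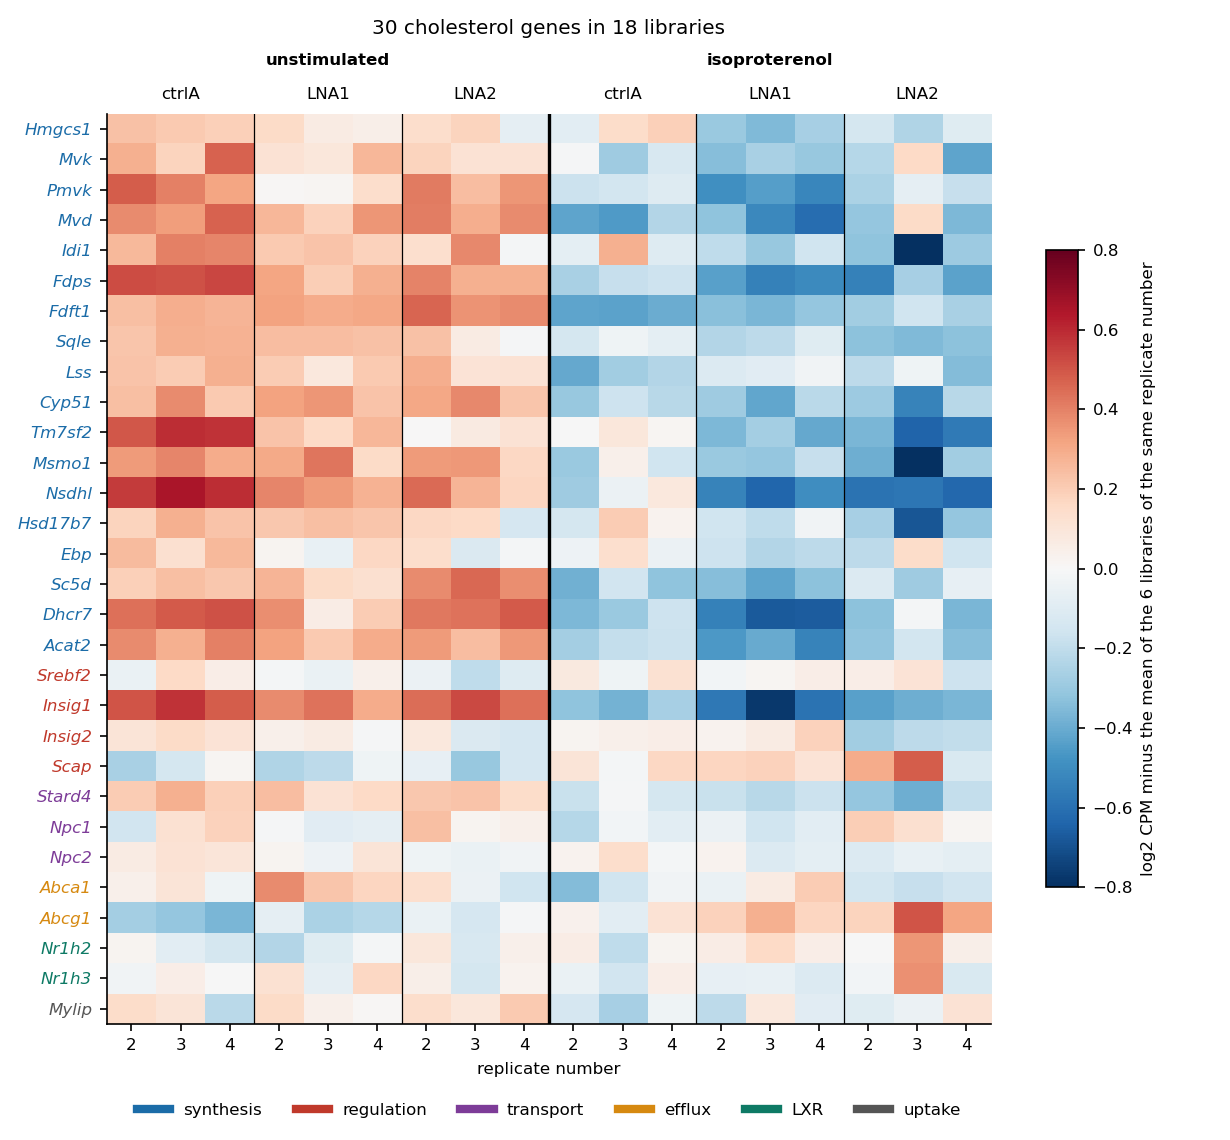
Colours give the log2 CPM of each of the 30 genes (rows, names coloured by role) in each of the 18 libraries (columns, replicate numbers 2, 3 and 4 within the 6 groups) minus the mean of the 6 libraries of the same replicate number, cut at 0.8 in each direction. Most synthesis genes and Insig1 are above their mean in the unstimulated columns on the left and below it in the isoproterenol columns on the right, while Srebf2, Npc2 and the liver X receptors show no such division.

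The summed level of the synthesis genes shows the size of the shift. It was lowest at 3303.2, 3485.3 in the median and highest at 3693.6 CPM in the 9 unstimulated libraries, and 2289.8, 2473.6 and 2784.4 CPM in the 9 stimulated ones. The ranges did not overlap. The 2 efflux pumps together had 159.4 to 421 CPM without and 141.9 to 422 CPM with isoproterenol, ranges that overlapped almost fully.

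Insig1 (chr5:28071363-28078662, plus strand of GRCm38) had the smallest adjusted p among the 30 genes. Replicates 2, 3 and 4 of the unstimulated cells had 887, 969.9 and 876 CPM in ctrlA, 815, 879.7 and 768 in LNA1 and 855, 936 and 851 in LNA2 cells. With isoproterenol the same replicates had 501, 501 and 522 CPM in ctrlA, 422, 381 and 416 in LNA1 and 463, 496 and 487 in LNA2 cells. Every stimulated library lay below every unstimulated one. Insig1 fell by 0.91 log2 units (± 0.067 SE, adjusted p 6.57e-07 in edgeR), with 871 ± 59.9 CPM before and 465 ± 48.3 CPM after stimulation (mean ± SD of 9 libraries each), which is 53.4% of the unstimulated mean. The other regulators gave different values. Insig2, the paralogue that is regulated by other signals, had 75.2 to 124 CPM without and 71.2 to 118 CPM with isoproterenol (log2 fold change -0.076, adjusted p 0.922). Srebf2 itself, the gene of the transcription factor SREBP-2, ranged over 147 to 308 and 150.1 to 312 CPM, with a log2 change of 0.043 (± 0.22 SE, adjusted p 0.981). Scap was higher in 9 of 9 pairs of libraries with the same LNA and number, at 0.30 log2 units (± 0.26 SE, adjusted p 0.744, and 0.0045 with the replicate block).

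In the mevalonate arm, which carries acetyl-CoA to isopentenyl diphosphate, Acat2, Mvk, Pmvk and Mvd fell. Acat2 (chr17:12942890-12960747, minus strand), the cytosolic acetoacetyl-CoA thiolase, had 264, 263 and 246 CPM in ctrlA, 253, 250.3 and 229 in LNA1 and 256, 257 and 237 in LNA2 cells in unstimulated replicates 2, 3 and 4. Under stimulation it had 168, 189 and 166 CPM in ctrlA, 148, 163 and 129 in LNA1 and 163, 195 and 147 in LNA2 cells. The 9 stimulated values were all lower than the 9 unstimulated ones, and the decrease was 0.62 log2 units (± 0.077 SE, adjusted p 0.000147 in edgeR). Acat2 is 98.7% identical over 445 bp to the neighbouring gene Tcp1, which had a log2 fold change of 0.13 (adjusted p 0.835). Acat2 is also 97.7% identical over 1477 bp to Acat3, which had 304 counts in all libraries together against 47888 for Acat2. Pmvk (chr3:89454541-89469013, plus strand), the phosphomevalonate kinase, had 98.9, 98.9 and 101 CPM in ctrlA, 71.1, 75.5 and 88.8 in LNA1 and 94.3, 88.7 and 103 in LNA2 cells without stimulation. With isoproterenol it had 62.7, 67.4 and 74.9 CPM in ctrlA, 50.3, 55.1 and 56.1 in LNA1 and 59.1, 71.1 and 71.0 in LNA2 cells. All 9 pairs were lower, although stimulated ctrlA replicate 4 was above unstimulated LNA1 replicate 2, and Pmvk fell by 0.53 log2 units (± 0.073 SE, adjusted p 0.000395). Mvk, the mevalonate kinase (chr5:114444269-114460591), fell by 0.39 (adjusted p 0.034), with 35.7 to 45.7 CPM without and 24.7 to 43.3 CPM with isoproterenol, and stimulated LNA2 replicate 3 was the one library above its unstimulated partner. Mvd, the decarboxylase that forms isopentenyl diphosphate (chr8:122433601-122443422), fell by 0.67 (adjusted p 0.0435), and its ranges of 54.7 to 102 and 33.9 to 78.6 CPM overlapped while all 9 pairs were lower. Hmgcs1 and Idi1, the isomerase of isopentenyl diphosphate, did not pass. Hmgcs1 had a log2 fold change of -0.25 (adjusted p 0.0546, 0.000779 with the replicate block) and Idi1 of -0.45 (0.348, 0.000795 with the block), and each was lower in 9 of 9 pairs.

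Fdps and Fdft1, which lead from isoprenoids to squalene, both fell. Fdps (chr3:89093588-89101959, minus strand) had 381, 289 and 289.8 CPM in ctrlA, 329.9, 233 and 244 in LNA1 and 348, 248 and 244 in LNA2 cells in the unstimulated replicates 2, 3 and 4. In the stimulated groups it had 221, 179 and 179 CPM in ctrlA, 196, 139.5 and 141 in LNA1 and 182, 169 and 149 in LNA2 cells. Replicate 2 was the highest library of every group, and still each stimulated library was below the lowest unstimulated one. The decrease was 0.75 log2 units (± 0.12 SE, adjusted p 0.00117 in edgeR), to 59.7% of the unstimulated mean. Fdft1 (chr14:63145150-63179578, minus strand), the squalene synthase, had 120.3, 91.1 and 100.3 CPM in ctrlA, 127, 91.4 and 103 in LNA1 and 141, 95.5 and 108 in LNA2 cells before stimulation. After it the values were 76.1, 55.3 and 63.2 CPM in ctrlA, 80.7, 57.8 and 67.0 in LNA1 and 84.1, 66.7 and 69.3 in LNA2 cells. No stimulated library reached the lowest unstimulated one, and Fdft1 fell by 0.66 log2 units (± 0.11 SE, adjusted p 0.00246). Of its exons, 774 bp lie opposite exons of Ctsb, whose log2 fold change was -0.057 (adjusted p 0.878). Sqle, the squalene epoxidase, and Lss, the lanosterol synthase, were lower in 9 of 9 pairs without passing. Their log2 fold changes were -0.39 (adjusted p 0.251) and -0.37 (adjusted p 0.524), and 1.25e-06 and 1.68e-05 were the adjusted p values with the replicate block. The replicate numbers were far apart in both genes, with unstimulated ctrlA replicates 2, 3 and 4 at 240.4, 335 and 413 CPM for Sqle and 277, 489 and 556 CPM for Lss, and replicate 2 was the lowest library of every group.

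Of the 8 genes that turn lanosterol into cholesterol, 6 fell, among them Nsdhl, the sterol dehydrogenase that takes part in removing methyl groups at carbon 4. Nsdhl (chrX:72918557-72958514, plus strand) had 105, 95.8 and 91.4 CPM in ctrlA, 93.4, 77.4 and 73.4 in LNA1 and 97.6, 73.6 and 68.4 in LNA2 cells in unstimulated replicates 2, 3 and 4. With isoproterenol it had 58.6, 59.1 and 64.4 CPM in ctrlA, 49.2, 39.2 and 43.0 in LNA1 and 47.3, 40.8 and 39.2 in LNA2 cells. The groups did not overlap, and Nsdhl fell by 0.83 log2 units (± 0.089 SE, adjusted p 3.65e-05 in edgeR). Cyp51 (chr5:4081145-4104746, minus strand) had 680.3, 619 and 551 CPM in ctrlA, 719, 607 and 559.6 in LNA1 and 712, 623 and 557 in LNA2 cells in the same unstimulated groups. The stimulated values were 466, 424 and 408 CPM in ctrlA, 473, 357 and 411 in LNA1 and 469, 328 and 408 in LNA2 cells. The groups did not overlap here either, and the decrease was 0.59 log2 units (± 0.097 SE, adjusted p 0.0019). Tm7sf2 (chr19:6062821-6068373, minus strand), a reductase of the sterol double bond left by Cyp51, was far less abundant, with 14.3, 17.3 and 17.1 CPM in ctrlA, 11.9, 12.9 and 13.8 in LNA1 and 10.2, 12.1 and 12.5 in LNA2 cells. Isoproterenol left it at 10.1, 12.3 and 11.6 CPM in ctrlA, 7.90, 9.53 and 8.66 in LNA1 and 7.88, 7.39 and 7.76 in LNA2 cells. All 9 pairs were lower, although the ctrlA values under stimulation overlapped the unstimulated values of the other LNAs, and Tm7sf2 fell by 0.56 (± 0.082 SE, adjusted p 0.000701). A stretch of 532 bp of its exons is shared with Vps51 on the same strand, which had a log2 fold change of 0.16 (adjusted p 0.771).

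The remaining genes of this branch comprised 3 that fell and 2 that did not pass. Sc5d, the lathosterol desaturase (chr9:42251595-42264256), fell by 0.53 (adjusted p 0.00295), with 48.3, 59.8 and 70.8 CPM as the lowest, median and highest unstimulated value and 32.4, 39.1 and 50.5 CPM under stimulation. Dhcr7, which reduces 7-dehydrocholesterol in the final step (chr7:143823145-143848410), fell by 0.75 (adjusted p 0.0272), with 58.2, 82.2 and 105 against 30.9, 46.8 and 73.9 CPM. Hsd17b7, the ketosteroid reductase that acts with Nsdhl (chr1:169949535-169969241), fell by 0.34 (adjusted p 0.0311), with 76.4, 90.7 and 98.5 against 47.8, 70.7 and 88.3 CPM. The ranges overlapped for all 3 genes, and all 9 pairs were lower for each. Dhcr7 and Msmo1 hold stretches of 200 to 227 bp that resemble sequence of other genes, so reads from these could have been assigned to them. Msmo1, the methyl sterol oxidase, was lower in 9 of 9 pairs at -0.61 on the log2 scale, without passing (± 0.18 SE, adjusted p 0.0821, 1.51e-05 with the replicate block). Ebp, the sterol isomerase, had a log2 change of -0.19 (± 0.22 SE, adjusted p 0.836, 0.038 with the block) and was lower in 7 of 9 pairs.

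Of the genes that move or sense cholesterol, none passed without the block. Stard4, a soluble carrier of cholesterol between membranes, was lower in 9 of 9 pairs with 109, 117 and 157 CPM as the lowest, median and highest unstimulated value and 76.5, 90.9 and 117 CPM under stimulation, a log2 fold change of -0.40 (adjusted p 0.065, 1.84e-06 with the replicate block). Npc1 and Npc2, which release cholesterol from lysosomes, had log2 fold changes of -0.068 (adjusted p 0.975) and -0.051 (0.969). Among the pumps, Abca1, which loads lipid onto apolipoproteins, had 118, 241 and 339.9 CPM without and 90.0, 242 and 304 CPM with isoproterenol, at -0.14 log2 units (± 0.30 SE, adjusted p 0.939, 0.027 with the block). Abcg1, which passes sterol to lipoprotein particles, had 41.9, 81.2 and 107 against 51.8, 116 and 137 CPM and was higher in 9 of 9 pairs, at 0.40 log2 units (± 0.25 SE, adjusted p 0.54). With the replicate block the adjusted p of Abcg1 was 2.73e-05. The pumps thus had fold changes of opposite sign over all libraries. Within replicates 2, 3 and 4, however, Abca1 was at -0.37, -0.19 and 0.014, so its sign was not the same in each. The liver X receptor genes Nr1h2 and Nr1h3 had log2 fold changes of 0.13 (adjusted p 0.791) and -0.030 (0.957), and Mylip of -0.15 (0.438), and none of the 3 passed with the block.

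**Figure D2:**
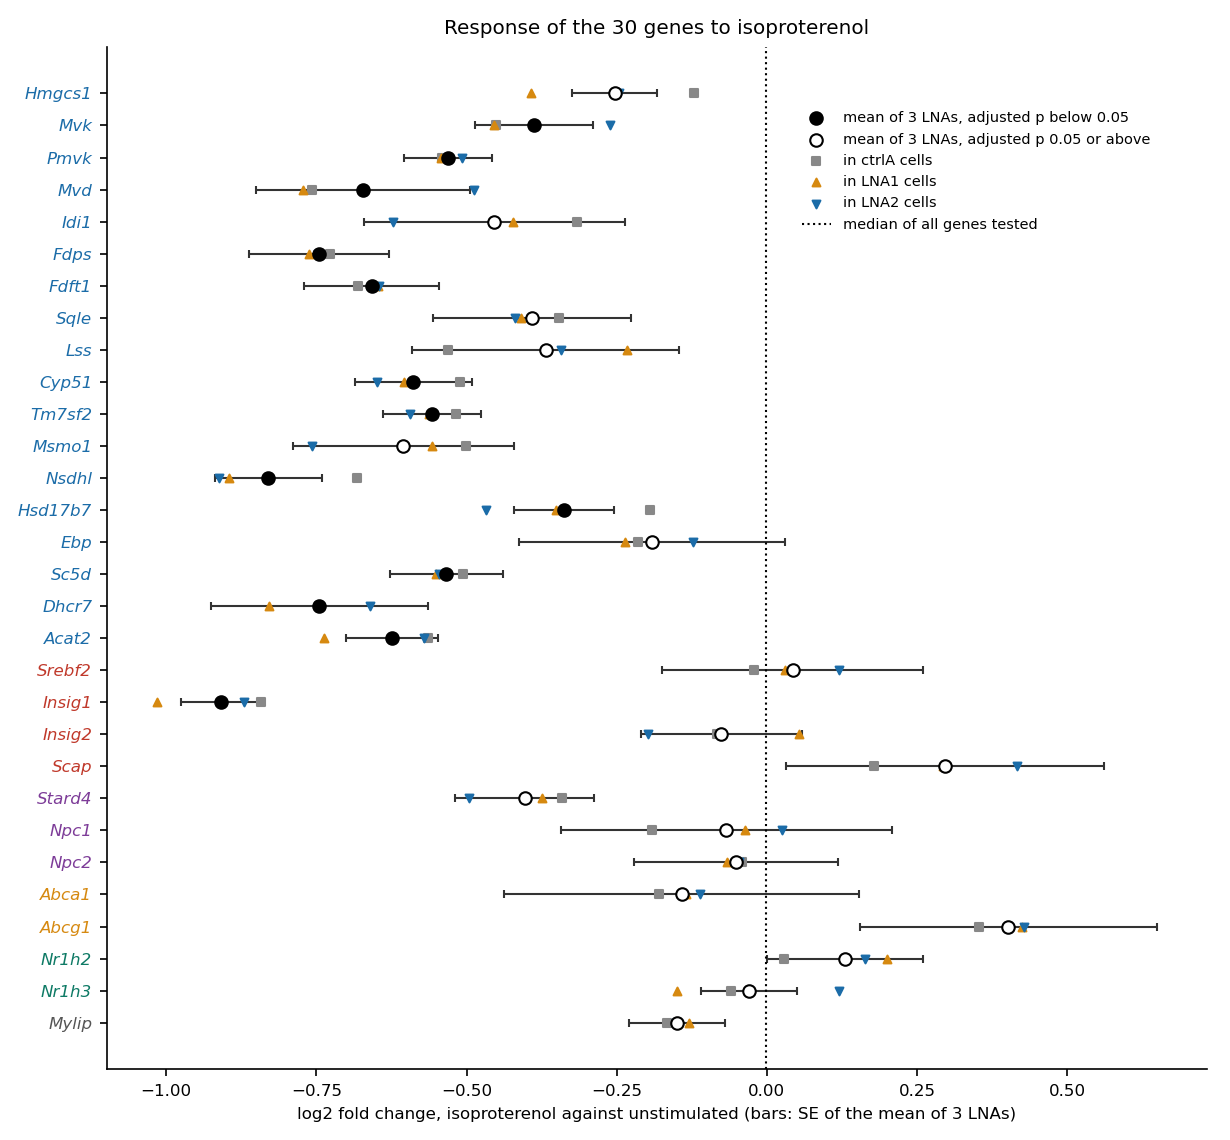
Log2 fold change with isoproterenol (x axis) of each of the 30 genes (y axis, names coloured by role as in the heat map). Circles give the mean of the 3 LNAs with its SE, filled where the adjusted p was below 0.05, small symbols the value in ctrlA, LNA1 and LNA2 cells, and the dotted line gives the median of all genes tested. The 18 synthesis genes and Insig1 lie to the left of that line, with Insig1 at -0.91, and Abcg1 at 0.40 and Scap at 0.30 lie to its right.

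The decrease could be followed library by library. For 6 of the 30 genes (Fdps, Fdft1, Cyp51, Nsdhl, Acat2 and Insig1) all 9 stimulated libraries lay below all 9 unstimulated ones, as did 0.428% of the genes tested. Among the pairs of libraries with the same LNA and replicate number, 18 genes were lower in 9 of 9, namely Insig1, Stard4 and 16 of the 18 synthesis genes, as were 6.92% of all genes. The synthesis genes outside this count were Mvk (8 of 9 pairs) and Ebp (7 of 9). Within replicate numbers 2, 3 and 4 the median log2 difference over the synthesis genes was -0.57, -0.54 and -0.51, and 18, 17 and 18 of them were lower. The lower values were thus found in the libraries with high mitochondrial and ribosomal RNA counts as well as in the others. The share of CT010467.1 itself differed with isoproterenol in replicate 2, at 5.80% to 14.3% without and 2.88% to 7.44% with it, and was lower with each LNA. In replicates 3 and 4 it was 0.285% to 0.688% without and 0.325% to 1.04% with isoproterenol. The part of this in the decrease was not tested. Without the 6 libraries of replicate 2, 18 of the 30 genes passed, beside 10.9% of all genes. Mvk was not among them (adjusted p 0.0518).

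Calls for 4 of the 13 genes lay near the limit of 0.05 and were lost in 10 to 13 of the 18 fits that each left out a library. Leaving out each of the 18 libraries in turn, Insig1, Nsdhl, Acat2, Pmvk, Tm7sf2, Fdps, Cyp51, Fdft1 and Sc5d passed in all 18 fits. Mvk passed only without stimulated ctrlA 2, unstimulated LNA1 2, stimulated LNA1 3, unstimulated LNA2 4 or stimulated LNA2 3, and its adjusted p reached 0.0834 in the other 13 fits. Mvd passed only without unstimulated ctrlA 2, stimulated ctrlA 4, unstimulated LNA1 2, unstimulated LNA2 2 or stimulated LNA2 3, and reached 0.0952 in the other 13. Hsd17b7 passed without unstimulated ctrlA 2, stimulated ctrlA 3, stimulated LNA1 4, unstimulated LNA2 4 or any stimulated LNA2 library, with adjusted p up to 0.0744 in the other 11. Dhcr7 passed without unstimulated ctrlA 2, stimulated ctrlA 3 or 4, unstimulated LNA1 2, stimulated LNA1 3 or 4, unstimulated LNA2 2 or stimulated LNA2 3, with adjusted p up to 0.0659 in the other 10. In all these fits the 4 genes stayed lower. With no filter on low counts 11 of the 30 genes passed, beside 1.34% of all genes, and Mvk (adjusted p 0.171) and Hsd17b7 (0.235) were the 2 lost. Conversely, Hmgcs1 passed without unstimulated LNA2 4 (adjusted p 0.0473), Msmo1 without stimulated LNA2 2 (0.0395), and Stard4 without stimulated replicate 2 of any LNA (0.0333 at the lowest).

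**Figure D3:**
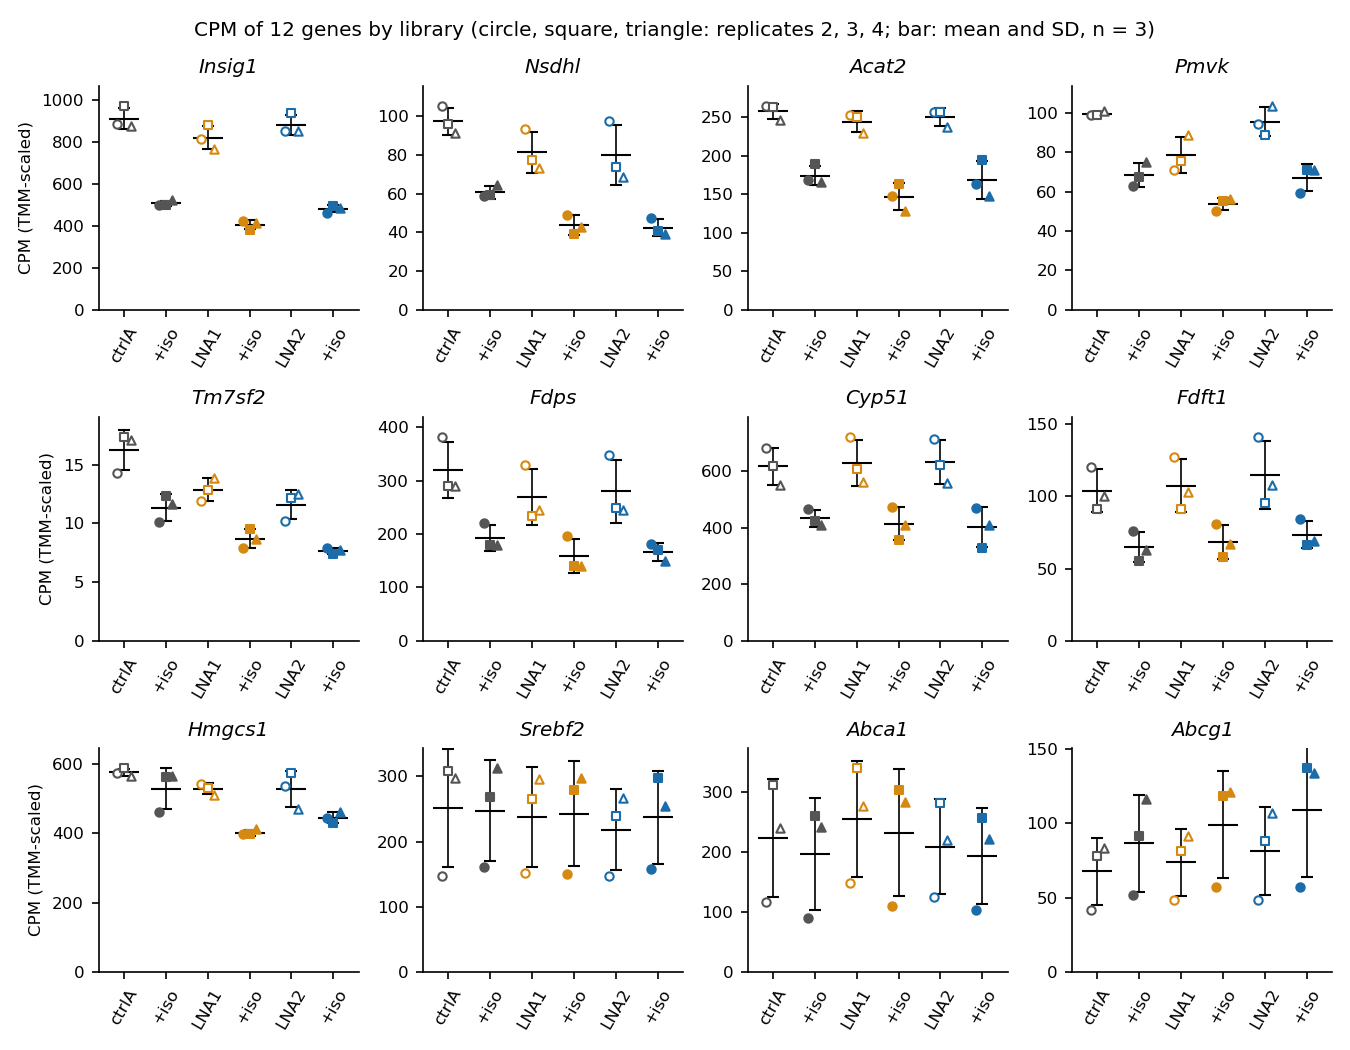
CPM of 12 of the genes (y axes, each from 0) in the 3 libraries of each group (x axis), open without and filled with isoproterenol, with the group mean and SD (n = 3). The first 8 panels are the genes with the smallest adjusted p for isoproterenol, in which filled symbols sit below the open ones of the same LNA, whereas Srebf2 and Abca1 are spread mainly by replicate 2, the circle, which is the lowest library in every group.

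The promoters of the genes were read for the sequences on which sterol-regulated transcription is known to rest. RefSeq windows of 300 bases (250 before to 50 after a start, GRCm38.p6) were at hand for 24 of the 30 genes, and Fdps, Fdft1, Sqle, Stard4, Npc1 and Abcg1 had no entry. The letters CCAAT of the NF-Y box, searched on both strands, were in a window of 19 of the 24 genes and in 37.4% of all 32851 windows, or 43.6% of the tested genes with a window. Of the 13 genes that fell, 11 had a window, and 10 of these held CCAAT, Acat2 being the exception. Among the 13 genes with a window that did not pass, 9 held it, and Abca1, Nr1h2, Nr1h3 and Scap did not. The letters TCACNCCAC of the sterol regulatory element were found in Hmgcs1 alone, and in 1.24% of all windows, or 1.31% of the tested genes with a window. The full cyclic AMP response element TGACGTCA was in 0 of the 24 genes, 1.79% of all windows and 3.48% of the tested genes with one, and its shorter form TGACGT was in Hmgcs1 and Insig1, 7.51% of windows and 13.1% of the tested genes. The GC box GGGCGG was in 21 of the 24 genes and 67% of tested genes with a window. Windows of 4 genes are printed in the direction of transcription. Insig1 and Nsdhl were taken for the largest decreases and Mvd as a synthesis gene with CCAAT on both strands. Hmgcs1 was taken as the only gene with the exact letters of the sterol element. Capitals mark the 5 letters of the NF-Y box, which read as its reverse complement where it lies on the other strand, and in Hmgcs1 also the 9 letters of the sterol element:
Insig1, chr5:28071162-28071461, plus strand: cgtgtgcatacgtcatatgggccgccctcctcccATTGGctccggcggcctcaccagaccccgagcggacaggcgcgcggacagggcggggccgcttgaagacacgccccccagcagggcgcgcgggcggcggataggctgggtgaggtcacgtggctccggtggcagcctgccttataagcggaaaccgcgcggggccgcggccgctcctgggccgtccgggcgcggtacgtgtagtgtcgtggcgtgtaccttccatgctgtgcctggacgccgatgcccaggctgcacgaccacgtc
Nsdhl, chrX:72918271-72918570, plus strand: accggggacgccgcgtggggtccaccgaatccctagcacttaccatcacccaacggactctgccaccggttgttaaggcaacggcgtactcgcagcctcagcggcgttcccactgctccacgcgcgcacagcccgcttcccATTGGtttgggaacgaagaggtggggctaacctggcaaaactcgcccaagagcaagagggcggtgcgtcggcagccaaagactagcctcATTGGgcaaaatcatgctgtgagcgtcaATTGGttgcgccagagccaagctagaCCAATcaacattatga
Mvd, chr8:122443373-122443672, minus strand: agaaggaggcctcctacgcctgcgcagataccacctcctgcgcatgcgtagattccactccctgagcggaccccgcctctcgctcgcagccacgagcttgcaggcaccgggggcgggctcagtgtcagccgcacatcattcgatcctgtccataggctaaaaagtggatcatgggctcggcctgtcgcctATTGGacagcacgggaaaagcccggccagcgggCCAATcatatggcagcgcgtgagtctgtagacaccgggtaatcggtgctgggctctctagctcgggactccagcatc
Hmgcs1, chr13:119690101-119690400, plus strand: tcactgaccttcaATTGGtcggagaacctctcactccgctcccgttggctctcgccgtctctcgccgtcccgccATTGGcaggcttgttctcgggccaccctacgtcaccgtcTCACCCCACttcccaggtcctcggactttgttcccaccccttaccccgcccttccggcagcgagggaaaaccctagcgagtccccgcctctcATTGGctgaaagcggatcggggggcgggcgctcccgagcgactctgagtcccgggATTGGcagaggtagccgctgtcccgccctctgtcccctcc
In Hmgcs1 the sterol element began 137 bases before the start and CCAAT was found 4 times, the closest upstream copy 45 bases before the start. Insig1 held 1 CCAAT, 216 bases before the start, and Nsdhl held 4, at 109 and 20 bases before and 9 and 35 bases after it. A match of letters does not show that a factor binds there. Only exact letters were searched, so a window without a match is not shown to lack the element.

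Whether the response to isoproterenol differed with the LNA was examined next. In ctrlA cells alone 1 gene, Insig1, passed (0.488% of all genes), in LNA1 cells Insig1, Nsdhl and Acat2 (0.702%), and in LNA2 cells Insig1 and Nsdhl (0.395%), each with 3 libraries against 3. With the replicate block 17, 17 and 18 genes passed, beside 7.88%, 9.84% and 9.55% of all genes. The median log2 fold change over the 18 synthesis genes was -0.51, -0.55 and -0.56 in ctrlA, LNA1 and LNA2 cells. All 18 synthesis genes had a value below 0 with each of the 3 LNAs, as had 23 of the 30 genes and 27.8% of all genes tested. Insig1 was at -0.84, -1.02 and -0.87, Fdps at -0.73, -0.76 and -0.75, and Nsdhl at -0.68, -0.89 and -0.91. The interaction of LNA and isoproterenol, which tests the difference itself, passed for 0 of the 30 genes with LNA1 and with LNA2, and for 0% of all genes. At an unadjusted p below 0.05 there were also 0 members for either LNA in edgeR without the replicate block, beside 0.702% of all genes for LNA1 and 0.776% for LNA2, and DESeq2 called 0, beside 0% and 0.0134%. With the block 2 synthesis genes had an unadjusted p below 0.05 for LNA1, beside 2.63% of all genes, and 0 for LNA2, beside 5.4%. Without the block the smallest unadjusted p was that of Hmgcs1 for LNA1, at -0.27 log2 units (± 0.17 SE, adjusted p 1), and that of Hsd17b7 for LNA2, at -0.27 (SE 0.21, adjusted p 1). For Insig1 the difference with LNA1 was -0.17 (SE 0.16), so that the interval of 2 SE ran from -0.50 to 0.15 and differences of that size were not detectable.

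With both states of stimulation pooled in 1 contrast (6 libraries a side), LNA1 compared with ctrlA changed 0 of the 30 genes at an adjusted p below 0.05 in edgeR, beside 0.475% of all genes, with 5 members at an unadjusted p below 0.05 (6.01% of all genes) and 4 called by DESeq2 (1.26% of all genes). The smallest p belonged to Pmvk and Tm7sf2. Pmvk had 98.9, 98.9 and 101 CPM in unstimulated and 62.7, 67.4 and 74.9 CPM in stimulated ctrlA replicates 2, 3 and 4, against 71.1, 75.5 and 88.8 and 50.3, 55.1 and 56.1 CPM with LNA1. It was lower with LNA1 in 6 of 6 pairs, with a log2 change of -0.34 (± 0.089 SE, adjusted p 0.165, 0.000905 with the replicate block). Tm7sf2 had 10.1, 13.3 and 17.3 CPM as the lowest, median and highest ctrlA value and 7.90, 10.7 and 13.8 CPM with LNA1, a log2 change of -0.36 (± 0.099 SE, adjusted p 0.207, 0.00405 with the block). With the replicate block 7 genes fell (Hmgcs1, Pmvk, Fdps, Tm7sf2, Nsdhl, Dhcr7 and Insig1), beside 4.03% of all genes, and Abca1 rose, beside 3.77%. Of the 18 synthesis genes 16 had a log2 fold change below 0, as had 55% of all genes, with a median of -0.16 against -0.02 for all genes, and 0 of the 18 passed without the block.

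LNA2 lowered 1 of the 30 genes, Tm7sf2, and raised 0, while 0.515% of all genes fell and 1.07% rose. With ctrlA, Tm7sf2 had 14.3, 17.3 and 17.1 CPM in unstimulated and 10.1, 12.3 and 11.6 CPM in stimulated replicates 2, 3 and 4. With LNA2 it had 10.2, 12.1 and 12.5 and 7.88, 7.39 and 7.76 CPM. LNA2 was lower in 6 of 6 pairs, and in each state of stimulation every LNA2 library was below every ctrlA library. The decrease was 0.52 log2 units (± 0.10 SE, adjusted p 0.0127 in edgeR, 7.58e-05 with the replicate block). The call was kept without each of the 18 libraries in turn but not when the filter on low counts was dropped (adjusted p 0.205). Vps51, which shares exon sequence with it, had a log2 fold change of 0.15 (adjusted p 0.94). Nsdhl came next, with 58.6, 77.9 and 105 CPM with ctrlA and 39.2, 57.8 and 97.6 CPM with LNA2 as the lowest, median and highest value, a log2 fold change of -0.40 (adjusted p 0.0906, 0.0284 without unstimulated LNA2 replicate 2). With the block 9 genes fell (Hmgcs1, Idi1, Fdps, Sqle, Tm7sf2, Nsdhl, Hsd17b7, Insig2 and Npc2), beside 11.2% of all genes, and Fdft1 and Abcg1 rose, beside 9.43%. The comparisons of LNA1 and LNA2 share the ctrlA libraries, so likeness between them is not independent. Side by side, LNA1 and LNA2 gave -0.37 and -0.40 for Nsdhl, -0.26 and -0.19 for Hmgcs1, -0.27 and -0.20 for Fdps, -0.34 and -0.044 for Pmvk, and -0.24 and -0.062 for Insig1. In 6 of 6 pairs 10 of the 30 genes were lower with LNA1 and 9 with LNA2, beside 12.1% of all genes for each. In all 6 pairs 3 genes were higher with LNA1 (Fdft1, Abca1 and Abcg1) and 2 with LNA2 (Fdft1 and Abcg1), beside 8.03% and 9.92% of all genes.

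**Figure D4:**
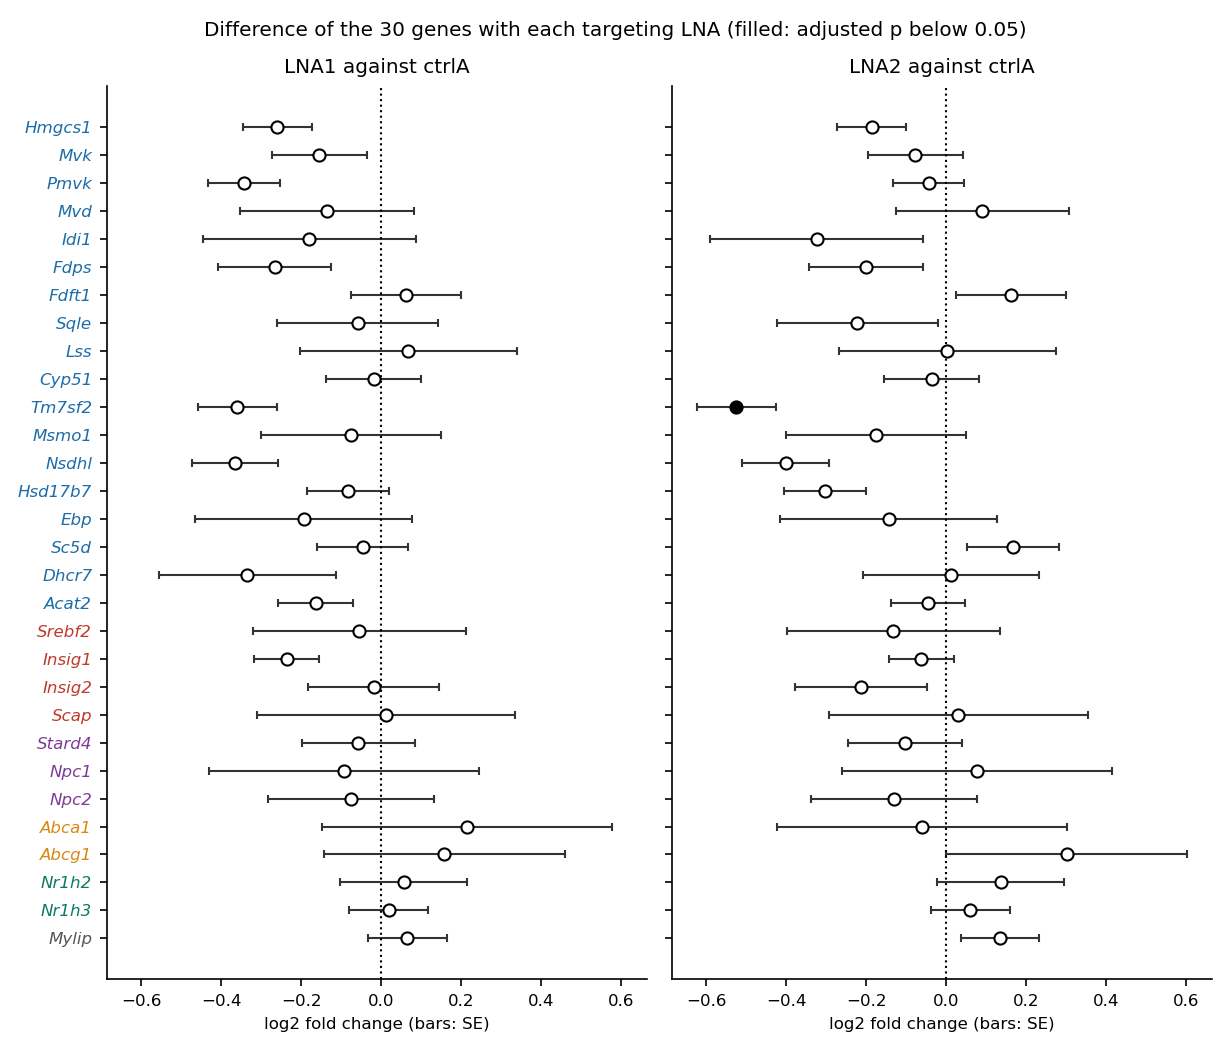
Log2 fold change with LNA1 (left) and LNA2 (right) against ctrlA (x axes, SE as bars) of the 30 genes (y axis, names coloured by role as in the heat map). Filled circles mark an adjusted p below 0.05, reached by Tm7sf2 with LNA2 at -0.52 on the right.

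Compared directly, LNA2 and LNA1 differed for 0 of the 30 genes in edgeR, beside 0.97% of all genes, with 3 members at an unadjusted p below 0.05 (9.2% of all genes) and 1 called by DESeq2 (2.26% of all genes). Pmvk was higher with LNA2 than with LNA1 in 6 of 6 pairs, with a log2 difference of 0.30 (SE 0.089, adjusted p 0.183, 0.00123 with the replicate block). Insig1 was likewise higher in 6 of 6 pairs, by 0.17 (SE 0.081, adjusted p 0.539, 0.0248 with the block). With the block 7 genes passed, of which Pmvk, Sc5d, Dhcr7 and Insig1 were higher with LNA2 beside 8.23% of all genes, and Sqle, Insig2 and Abca1 lower, beside 7.2%. A joint test over the 6 groups passed for 9 of the 30 genes (Pmvk, Fdps, Fdft1, Cyp51, Tm7sf2, Nsdhl, Sc5d, Acat2 and Insig1), beside 2.94% of all genes, and for 23 with the replicate block, beside 32%. At an adjusted p below 0.001, 2 genes passed without the block, beside 0.455%. Without stimulated LNA1 replicate 3 or 4 or stimulated LNA2 replicate 4 the joint test passed for 5 genes, beside 1.96%, 1.95% and 2.32% of all genes.

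Of the genes around the pathway, 1 in each of 2 lists passed with isoproterenol without the replicate block, where 1.91% of all genes fell and 2.67% rose. Of 6 genes of acetyl-CoA supply and further sterol-responsive genes, Acss2, the cytosolic acetyl-CoA synthetase, fell with isoproterenol by 0.87 log2 units (± 0.10 SE, adjusted p 9.85e-05), with 186 ± 27.1 CPM before and 102 ± 19.0 CPM after stimulation (mean ± SD of 9 libraries), and 5 of the 6 fell with the replicate block. Of 9 genes of sterol sensing and of the processing and degradation of its sensors, Erlin1, a protein of the endoplasmic reticulum membrane, fell by 0.35 (SE 0.084, adjusted p 0.028), from 71.6 ± 9.69 to 56.4 ± 6.63 CPM, and 3 of the 9 fell with the block. None of 9 genes of the other branches from farnesyl diphosphate passed, nor any of 13 genes of sterol transport and storage or of the 3 tested of 5 oxysterol and liver X receptor genes. In these 3 lists the block gave 1, 2 and 1 genes higher and 0, 4 and 1 lower with isoproterenol, where 14.2% of all genes were higher and 12.2% lower. Without the block, 0 genes of the 5 lists passed for LNA1 or LNA2 against ctrlA or for LNA2 against LNA1. Of all genes 0.475%, 1.59% and 0.97% passed in these comparisons. With it, LNA1 against ctrlA gave 1 gene of sterol sensing, 2 of acetyl-CoA supply, 1 of the other branches and 1 of transport and storage lower, and 1 of transport and storage higher, beside 4.03% of all genes lower and 3.77% higher. LNA2 against ctrlA gave 3, 2, 2 and 3 genes lower in the same order, and 1 each of transport and storage and of the oxysterol list higher, beside 11.2% and 9.43%. For LNA2 against LNA1 the block gave 3 genes of sterol sensing lower, and 3 of acetyl-CoA supply and 1 of transport and storage higher, beside 7.2% of all genes lower and 8.23% higher. Several of these counts lie near the share of all genes.

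Markers of cell types also differed with isoproterenol. The 8 adipocyte markers (7 tested) held common ones such as Fabp4, brown ones such as Ucp1, and Lep, a marker of white fat. Their summed level was 15160 to 26300 CPM in unstimulated and 11900 to 20540 CPM in stimulated libraries. Most of this sum was Fabp4, which did not pass (mean 13603 and 9997.6 CPM, adjusted p 0.357). In the same list Adipoq fell (log2 fold change -0.71, adjusted p 0.0073) and Cidea (1.27, 0.0011) and Ucp1 (3.51, 1.12e-08) rose and the other 4 tested did not pass. The 6 preadipocyte or fibroblast markers summed to 95.98 to 219.5 and 139.1 to 300.5 CPM, and Ly6a rose (1.58, adjusted p 0.0415). The other 3 tested markers of this list did not pass and differed in sign, with Pdgfra at -0.029, Cd34 at -0.18 and Col1a1 at 0.33. The 4 macrophage markers summed to 8.24 to 28.4 and 12.4 to 43.2 CPM, almost all of it Cd68, which rose (0.9, adjusted p 0.00618), while Csf1r had a log2 difference of 0.092 (0.982). Endothelial markers summed to 2.02 to 3.72 and 1.64 to 3.88 CPM and hepatocyte markers to 0.975 to 3.6 and 0.408 to 2.11 CPM. With either targeting LNA, Pdgfra was higher than with ctrlA, by 0.89 for LNA1 (adjusted p 0.00743) and 0.71 for LNA2 (0.0121). The other 3 tested preadipocyte or fibroblast markers did not pass, and with LNA1 and LNA2 Ly6a was at 0.15 and 0.57, Cd34 at -0.34 and -0.67 and Col1a1 at -0.31 and -0.051, so that the median of the 4 was -0.083 and 0.26. Cd68 had a log2 difference of 0.88 with LNA2 against ctrlA (adjusted p 0.057, and 7.74e-05 with the replicate block), and Csf1r, a macrophage receptor at no more than 2.31 CPM, of 1.73 (0.137, and 0.00677 with the block). Summed macrophage markers were at 8.24 to 24.7 CPM with ctrlA, 11.4 to 29.6 with LNA1 and 14.3 to 43.2 with LNA2, ranges that overlapped. Of the marker genes tested, the block gave 2 adipocyte, 2 preadipocyte or fibroblast and 1 macrophage marker higher with isoproterenol. It gave 3 adipocyte and 1 hepatocyte marker lower, beside 14.2% of all genes higher and 12.2% lower. For LNA1 it gave 1 preadipocyte or fibroblast, 1 macrophage and 1 hepatocyte marker higher and 1 adipocyte marker lower than ctrlA, beside 3.77% and 4.03%. For LNA2 it gave 2 preadipocyte or fibroblast markers and both macrophage markers higher and 2 adipocyte markers lower than ctrlA, beside 9.43% and 11.2%. LNA2 against LNA1 gave 2 each of the adipocyte, preadipocyte or fibroblast and macrophage markers higher, and 1 adipocyte and 1 hepatocyte marker lower, beside 8.23% and 7.2%. The part of these markers in the changes of the cholesterol genes was not tested.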

How the data were processed

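PolyA RNA of the 18 samples was made into NEBNext Ultra II libraries and sequenced in paired ends on a NovaSeq. Per the labels and the study's methods, the authors converted and trimmed the reads with bcl2fastq and cutadapt and quantified them with Salmon against Gencode M22 (GRCm38). Versions, the strand setting and the way transcripts were summed to genes are not given in the sources used here. The deposited expected counts (estimated counts per gene, not normalized) were whole numbers in all cells, so none had to be rounded, and all value columns were assigned to a sample by name. The authors used DESeq2.

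Groups were taken from the labels. Genes passed edgeR's filterByExpr (minimum count 10, total 15), which left 14949 of 54347. Library sizes were scaled by TMM, and edgeR 4.0.16 quasi-likelihood tests with 1 term per group were fitted to all 18 libraries in R 4.3.3 (limma 3.58.1), with Benjamini-Hochberg adjustment over all genes tested. A gene passed at an adjusted p below 0.05. No second set of p-values was adjusted over the 30 genes alone. The members and the gene lists were chosen with earlier results of these data known.

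Libraries with the same replicate number deviated together from their group means, with r of 0.65 to 0.72 for number 2, 0.25 to 0.51 for number 3 and 0.24 to 0.47 for number 4, across genes, which are not independent. Between different numbers r was -0.52 to -0.37 for 2 and 3, -0.60 to -0.31 for 2 and 4, but 0.065 to 0.40 for 3 and 4, which overlaps the values within 3 and 4. The difference of replicate 3 minus replicate 4 correlated between groups at -0.061 to 0.28. The values thus set number 2 apart and barely tell 3 from 4. As all same-numbered pairs were above 0.1, the numbers were taken to pair the libraries by the rule in use, and the replicate block is given where it changed a call of the 30 genes, and for the other lists as counts. No 2 libraries of a group were identical, and chi-square per degree of freedom was 4.38 to 185.4 over the 18 pairs.

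Alternatives were DESeq2 1.42.0, RLE and upper quartile scaling, other filters, mitochondrial and ribosomal RNA genes left out of the totals, the replicate block, an added limit of 0.5 on the log2 fold change, and each library or replicate 2 left out. On counts simulated for the isoproterenol comparison over 14949 genes, edgeR recovered 1, 14, 31 and 47 of 49 genes changed by 1.25-, 1.5-, 2- and 4-fold and called 4 unchanged genes. DESeq2 recovered 2, 25, 38 and 47 of the 49 and called 27 unchanged genes. The simulated libraries shared no effect of the replicate number, whereas the real ones did. Recovery and false calls may therefore differ in the real data.

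For the named genes the rule was that every member is named, that members passing a contrast are given in every library for at most 8 of them by adjusted p, and that the 2 with the smallest p are given where none passes, together with Gm15551, Ucp1 and passing genes of the neighbour lists. Marker genes and genes sharing sequence were added where they touch a result. Positions and exon lengths came from GENCODE M21 on GRCm38, in which 29 of the 30 genes had the same version, and promoters from RefSeq GRCm38.p6. Near-identical sequence was searched with blastn 2.17.0+ at 95% identity over 200 bp. Python 3.11.15 (pandas 2.3.3, numpy 2.4.6, matplotlib 3.10.9) was used for tables and plots.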

Additional observations from a re-analysis of the deposited data

Results flagged for a closer look

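The difference between LNA1 and ctrlA for Lss, the lanosterol synthase, had opposite signs without and with isoproterenol. Lss was lower with LNA1 than with ctrlA in 3 of 3 unstimulated pairs, by a mean log2 difference of -0.073, and higher in 3 of 3 stimulated pairs, by 0.23. These differ by 0.303, and the interaction in edgeR was 0.30 (SE 0.54, adjusted p 1, unadjusted p 0.592, and 0.021 with the replicate block, where the adjusted p was also 1). Insig2, which retains Scap in the endoplasmic reticulum, showed the same division at smaller values of -0.090 and 0.054. The difference was 0.144, and the interaction 0.14 (SE 0.33, adjusted p 1 in edgeR). Neither gene passed the test of the difference, and the share of all genes with such a division was not counted.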

How the results depend on the processing

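Of the 30 genes, the number passing for isoproterenol was 23 with the replicate block (26.4% of all genes), 11 with no filter on low counts (1.34%) and 9 to 13 when each library was left out in turn (3.25% to 4.17% of all genes), against 13. With the added limit of 0.5 on the log2 fold change the number was 11 (3.2% of all genes), and Mvk and Hsd17b7 were lost. With LNA1 against ctrlA it was 8 with the block, 4 with DESeq2 and 1 without replicate 2, against 0, where 7.8%, 1.26% and 1.6% of all genes passed. With LNA2 against ctrlA it was 11, 2 and 3 in the same order (20.6%, 3.5% and 8.97% of all genes), 0 with no filter (0.426%) and 1 to 2 with each library left out (0.77% to 1.87%), against 1. For LNA2 against LNA1 it was 7, 1 and 1, against 0 (15.4%, 2.26% and 5.08% of all genes). The counts of 3 and 1 without replicate 2 were thus near or below the share of all genes. The joint test gave 23 with the block (32% of all genes), 5 with no filter (1.02%), 2 at the stricter limit of 0.001 (0.455%) and 5 to 9 with each library left out (1.93% to 2.83%), against 9. Settings chosen after seeing the data combined the block with leaving out stimulated LNA2 replicate 3, which gave 24, 12, 14, 7 and 23 genes for the joint test, LNA1, LNA2, LNA2 against LNA1 and isoproterenol, beside 37.1%, 15%, 22%, 14.9% and 29.8% of all genes, or with leaving out replicate 2, which gave 17, 2, 6, 4 and 20, beside 13.4%, 2.35%, 11.9%, 7.2% and 13.1%. The interactions gave 0 in every setting. With each library left out, 5 fold changes near 0 for isoproterenol changed sign and passed in no fit, namely Srebf2 (-0.052 to 0.12), Npc1 (-0.19 to 0.036), Npc2 (-0.15 to 0.036), Insig2 (-0.13 to 0.018) and Nr1h3 (-0.097 to 0.0090). Others kept their sign but moved in size, namely Ebp (-0.30 to -0.043), Abca1 (-0.25 to -0.032), Nr1h2 (0.058 to 0.19) and Scap (0.17 to 0.38). The 0.17 of Scap was reached without stimulated LNA2 replicate 3. Without the same library the interaction of Hsd17b7 with LNA2 was -0.13, against -0.27. Among the 30 genes the block changed no other call of the comparisons reported than those given or counted. Other scalings moved the median of all genes to between -0.017 and 0.0035. The cause of these changes was not tested.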
